A study of Mus musculus with 28 samples.

Results

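Between postnatal days 4 and 6 (P4 and P6), rods sorted from rd1 retinas were followed with 5 of the 28 RNA-seq libraries of the series, 2 at P4 and 3 at P6. The libraries were chosen by their labelled age and genotype, and 2 of those at P6, replicates 1 and 3, were averaged to 1 sample because they were near-identical, so 2 samples stood on each side. Differences were counted over autosomal genes. The rd1 mice were homozygous for the rd1 allele of Pde6b (Pde6b rd1/rd1) and carried TgNrlp-GFP, a green fluorescent protein transgene driven by the Nrl promoter. The wild-type (WT) mice carried the same transgene, and 3 WT libraries at P4 and 4 at P6 served for comparison, as did the rd1 libraries of other ages, 2 at P2, 4 at P8 and 2 at P10. GFP-positive cells were collected by flow cytometry, so a cell was taken for its Nrl promoter activity and not for a mature rod phenotype. The labels do not say how many animals gave a library, and the p-values measure only the spread between these samples, which may be technical.

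Rods are the photoreceptors of dim light. NRL, with CRX and NR2E3, sets rod identity in a cell that has just left the cell cycle, and the genes of phototransduction, the outer segment and the ribbon synapse are then switched on over the days that follow birth in the mouse. The rd1 allele inactivates Pde6b, which encodes a catalytic subunit of the rod phosphodiesterase that hydrolyses cGMP, and rd1 rods die later in postnatal life.

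The libraries held 15980188 to 20820977 counts, against 12265260 to 14130999 in the WT libraries of these ages, so genotype and depth cannot be told apart between them, while the 5 rd1 libraries were of 1 depth class. Xist and Ddx3y were both present in all 5, at 441 to 1709 CPM (a count scaled by the total of its library) and 24.0 to 57.7 CPM. Pde6b stood at 205 and 169 CPM at P4 and at 422, 372 and 420 CPM at P6 in rd1 rods, and at 488 to 936 and 886 to 1641 CPM in WT rods, with no overlap between the genotypes. The rod genes Nrl, Nr2e3 and Crx lay between 2155 and 3519 CPM in the 5 rd1 libraries.

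The 2 libraries at P4 were unlike each other. All 36 cell cycle genes tested were lower in replicate 1 than in replicate 2, and all 22 phototransduction genes tested were higher, where 43.8% of autosomal genes were higher in replicate 1. Summed over the list, cell cycle genes came to 1925 CPM in replicate 1 and 3306 CPM in replicate 2 at P4, and to 731, 1235 and 757 CPM at P6. Summed phototransduction genes came to 9186 and 6216 CPM at P4 and to 16118, 13331 and 16043 CPM at P6. At P6 the library with the most cell cycle RNA, replicate 2, thus also had the least phototransduction RNA, with 17 of 22 genes lower than in replicates 1 and 3 (39.8% of all autosomal genes), but the ages did not overlap in either sum. In sorted bulk RNA, fewer cells of a type and less RNA per cell cannot be told apart.

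**Figure D1:**
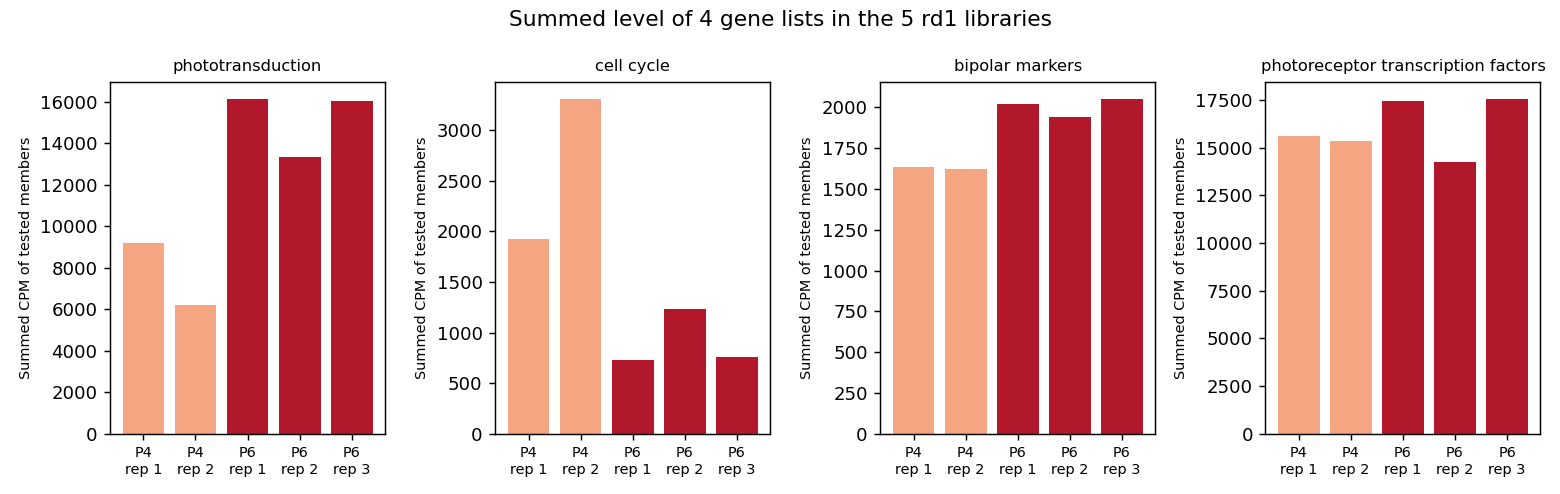
Summed CPM of the tested members of 4 gene lists (bars, 1 per library) in the 2 P4 and 3 P6 rd1 libraries. Phototransduction went from 9186 and 6216 CPM to between 13331 and 16118 CPM, cell cycle genes went from 1925 and 3306 CPM to between 731 and 1235 CPM, and the transcription factor sums of the ages overlapped.

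P4 rd1 replicate 1 also stood apart on 1 stretch of chromosome 4. Of 17 autosomal genes at 1 CPM or more in this library and at most 0.5 CPM in the 12 other rd1 libraries, 13 lay between 41893388 and 42874234 (GRCm38). The count of 17 is not particular to this library, since P8 rd1 replicate 1 had 17 such genes too and the other rd1 libraries 0 to 6. They include Gm10600, Gm13301, Gm5859 and Fam205c, copies within a repeated gene cluster whose reads cannot be assigned with certainty. Their summed level was 110.6 CPM in P4 rd1 replicate 1, 0.201 CPM in P4 rd1 replicate 2 and at most 0.558 CPM in any of the 12 other rd1 libraries. The 15 WT libraries held 120 to 565 CPM, with a median of 296 CPM. On this stretch the library labelled P4 rd1 replicate 1 was thus near the WT range, while its Pde6b level lay outside it. The part of this difference in the results was not tested, other than by leaving the library out.

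In rd1 rods, 5 autosomal genes rose from P4 to P6 and 0 fell, of 17830 tested (0.028%; edgeR quasi-likelihood test, Benjamini-Hochberg adjusted p at most 0.05). At an unadjusted p of at most 0.05 there were 622 genes higher (3.49%) and 605 lower (3.39%), and DESeq2 called 72 higher and 56 lower. The 5 genes were Amph, Grm6, Scgn, Car10 and Ablim1, and Grm6 and Scgn are markers of bipolar cells, the interneurons on which photoreceptors synapse.

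Grm6 encodes the glutamate receptor mGluR6 of ON bipolar cells (chromosome 11, 50850685 to 50866208, GRCm38). It was close to absent at P4, at 3.26 and 0.446 CPM, and stood at 56.1, 56.1 and 60.5 CPM at P6. Every P6 library lay far above both P4 libraries. The log2 fold change was 5.00 ± 0.78 (SE; edgeR adjusted p = 0.0114).

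Scgn encodes secretagogin, a calcium-binding protein of cone bipolar cells (chromosome 13, 23953456 to 23991214). Its level was 1.44 and 0.220 CPM at P4 and 14.4, 12.2 and 13.1 CPM at P6, without overlap. The log2 fold change was 3.99 ± 0.62 (edgeR adjusted p = 0.0114). Car10, a carbonic anhydrase-related protein gene (chromosome 11, 93098028 to 93601749), stood at 4.93 and 1.5 CPM at P4 and at 30.7, 35.7 and 32.4 CPM at P6. It rose by 3.42 ± 0.60 on the log2 scale (edgeR adjusted p = 0.044). In Grm6, Scgn and Car10, as in Amph and Ablim1 below, P4 replicate 1 was the higher of the P4 libraries.

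Amph encodes amphiphysin, a protein of synaptic vesicle endocytosis (chromosome 13, 18948351 to 19150915). It stood at 80.3 and 48.7 CPM at P4 and at 183, 156 and 187 CPM at P6. The rise of 1.43 ± 0.21 on the log2 scale had the smallest p of the autosomal genes tested (edgeR adjusted p = 0.0109). Ablim1, which encodes an actin-binding LIM protein (chromosome 19, 57032733 to 57314919), went from 12.4 and 7.42 CPM to 31.2, 24.7 and 31.9 CPM, a log2 fold change of 1.53 ± 0.27 (edgeR adjusted p = 0.0486). Both genes stayed high later in the series: Amph stood at 225 and 218 CPM and Ablim1 at 103 and 94.6 CPM in rd1 rods at P10.

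These 5 calls rest on few samples. Without P4 rd1 replicate 2, 0 genes were higher and 14 lower, 12 of the 14 on the chromosome 4 stretch; without the averaged P6 pair no gene was called, and without P4 rd1 replicate 1, 13 were higher and 5 lower with all 5 kept. Without P6 rd1 replicate 2, or without P4 WT replicate 1, 2 or 3 or P6 WT replicate 1 or 2, which only set the shared spread, Grm6, Amph and Scgn alone were called. Of the 5, Ablim1 was not called with RLE size factors, and neither Ablim1 nor Car10 with library totals.

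**Figure D2:**
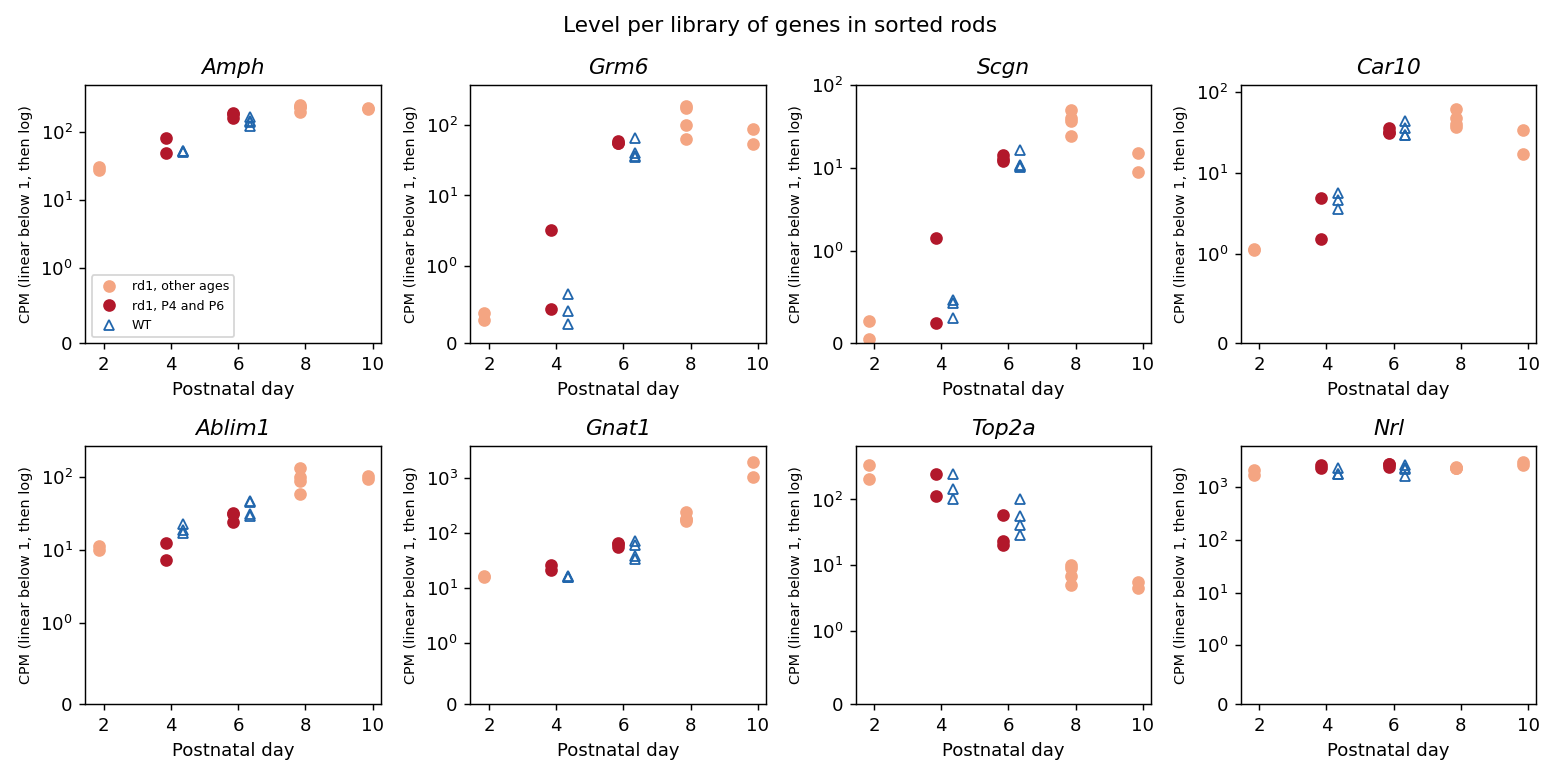
CPM per library (points) against postnatal day for the 5 genes past the threshold and for Gnat1, Top2a and Nrl, in rd1 rods at all ages and in WT rods at P4 and P6. The axis is linear below 1 CPM and logarithmic above. Grm6 lies at 3.26 CPM or less in rd1 at P4 and at 56.1 CPM or more at P6, while Nrl stays between 2290 and 2687 CPM in the 5 rd1 libraries of these ages.

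Beyond single genes, the ages were compared by whether every P6 library lay above, or below, both P4 libraries. Over all autosomal genes tested, 2779 lay above (15.6%) and 3881 lay below (21.8%), and the median log2 fold change was -0.0018. The counts of each gene list are read against these shares, and no list but the bipolar markers had a member past the threshold.

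Of the 22 phototransduction genes tested (of 23 listed), 21 lay above, 0 below and 1 overlapped. Their median log2 fold change was 1.09, with a range from 0.22 to 2.72, and 0 passed the threshold (lowest edgeR adjusted p = 0.144; 17 at an unadjusted p of at most 0.05).

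Gnat1, the alpha subunit of rod transducin, stood at 26.7 and 21.3 CPM and then at 64.6, 54.9 and 64.2 CPM. Pde6a, the alpha subunit of the phosphodiesterase, went from 35.4 and 16.8 CPM to 108, 79.8 and 115 CPM. Cnga1, the rod cGMP-gated channel subunit, went from 189 and 136 CPM to 309, 342 and 340 CPM. Pde6b itself had a log2 fold change of 1.11 ± 0.35 in rd1 rods (edgeR adjusted p = 0.32) and of 1.02 ± 0.27 in WT rods (edgeR adjusted p = 0.0705). The difference between those changes was 0.09, with a 95% interval from -0.82 to 1.00. The largest log2 fold change of the list was that of Slc24a1, the rod sodium, calcium and potassium exchanger, at 6.04 and 3.12 CPM and then 35.7, 24.7 and 33.0 CPM (2.72 ± 0.63, edgeR adjusted p = 0.144).

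The structural genes of the rod had smaller medians. For outer segment and disc genes the median was 0.36 on the log2 scale, with 12 of 18 above and 0 below. Among them, Abca4, the disc retinoid transporter, stood at 239 and 166 CPM and then at 536, 437 and 508 CPM. Impg1, a matrix proteoglycan gene, stood at 96.8 and 44.2 CPM and then at 186, 177 and 188 CPM. Genes of the photoreceptor cilium had a median of 0.25 (12 of 23 above, 1 below) and genes of the ribbon synapse a median of 0.26 (9 of 20 above, 0 below). The ribbon synapse median was 0.14 without P4 rd1 replicate 2, 0.43 without P6 rd1 replicate 2 and 0.06 without the averaged P6 pair. Cplx4, a complexin of the ribbon synapse, went from 39.2 and 25.9 CPM to 78.2, 70.3 and 77.4 CPM, and Slc17a7, the vesicular glutamate transporter, from 221 and 134 CPM to 406, 322 and 422 CPM. All 20 ribbon synapse genes were higher in P4 replicate 1 than in replicate 2. Abca4, Impg1, Cplx4, Slc17a7 and the other genes picked within a list below were chosen after their values were seen.

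The transcription factors of rods and other photoreceptors had a median near 0. Of 16 tested, 4 lay above, 3 below and 9 overlapped, with a median of 0.10 on the log2 scale that ran from -0.07 without the averaged P6 pair to 0.30 without P6 rd1 replicate 2, and was -0.01 without P4 rd1 replicate 2. Nrl stood at 2562 and 2290 CPM at P4 and at 2645, 2333 and 2687 CPM at P6, a log2 fold change of 0.07 with a 95% interval from -0.44 to 0.59. Nr2e3 (0.21, interval -0.30 to 0.73) and Crx (0.06, interval -0.42 to 0.54) had similar intervals, and the sign of all 3 turned negative without the averaged P6 pair, as did that of Nrl and Crx without P4 rd1 replicate 2. Esrrb, an orphan nuclear receptor of rods, was the exception in size, at 5.76 and 1.44 CPM and then at 20.3, 12.9 and 25.5 CPM (log2 fold change 2.34 ± 0.62, edgeR adjusted p = 0.2). Prdm1, which restrains bipolar fate in new photoreceptors, stood at 545 and 667 CPM and then at 416, 452 and 400 CPM.

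Bipolar cell markers had the largest median of the 32 lists, a log2 fold change of 1.80. Of 17 tested, 15 lay above and 1 below, and Grm6 and Scgn were the 2 past the threshold. In 13 of the 17, P4 replicate 1 was higher than replicate 2 (43.8% of all autosomal genes). Vsx1, a homeobox gene of cone bipolar cells, went from 2.02 and 0.255 CPM to 28.0, 19.8 and 26.3 CPM (4.41 ± 0.89, edgeR adjusted p = 0.116). Isl1, a LIM homeobox gene of ON bipolar cells, went from 11.8 and 1.83 CPM to 69.9, 70.2 and 78.4 CPM (3.43 ± 0.74, edgeR adjusted p = 0.123). Trpm1, the channel that mGluR6 gates, stood at 2.16 and 1.11 CPM and then at 14.3, 10.96 and 14.7 CPM, and Bhlhe23, a transcription factor of rod bipolar cells, at 4.29 and 0.103 CPM and then at 17.1, 15.8 and 16.6 CPM. The summed level of the list, which includes Otx2, also expressed by young photoreceptors, went from 1634 and 1625 CPM to 2020, 1943 and 2050 CPM. Whether this RNA came from the GFP-positive cells or from other cells in the sort was not tested.

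Cell cycle genes had the lowest median of the 32 lists, a log2 fold change of -1.64, or -1.03 without P4 rd1 replicate 2. Of 36 tested, 33 lay below, 0 above and 3 overlapped, and 0 passed the threshold (lowest edgeR adjusted p = 0.171; 33 at an unadjusted p of at most 0.05). Mki67, the proliferation marker, stood at 151 and 372 CPM at P4 and at 39.0, 106 and 35.9 CPM at P6. Top2a, the topoisomerase of mitotic chromosomes, stood at 111 and 241 CPM and then at 20.6, 58.0 and 23.7 CPM (-2.10 ± 0.52, edgeR adjusted p = 0.171). In both genes P4 replicate 2 and P6 replicate 2 were the highest libraries of their age, and 34 of the 36 genes were higher in P6 replicate 2 than in replicates 1 and 3 (42.6% of all autosomal genes).

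The 8 genes with the smallest p among those lower at P6 had edgeR adjusted p-values from 0.116 to 0.139. Several serve DNA replication or mitosis: Exo1, an exonuclease of DNA repair (8.80 and 17.7 CPM, then 1.93, 3.53 and 1.12 CPM), Gins3, a subunit of the replicative helicase (3.89 and 8.61 CPM, then 1.54, 2.39 and 1.72 CPM), Racgap1 of the mitotic spindle midzone (63.7 and 118 CPM, then 25.2, 31.4 and 23.3 CPM) and Pttg1, or securin (12.2 and 24.0 CPM, then 6.02, 8.08 and 5.66 CPM). The others were Ttf2, Hs3st4, Gulo and Tgif2, with log2 fold changes of -1.43, -1.37, -1.22 and -1.14. In WT rods the log2 fold change of Pttg1 was -0.05 ± 0.23, beside -1.34 ± 0.30 in rd1 rods. The difference of -1.29 (95% interval, not adjusted over genes, -2.07 to -0.50) did not pass the threshold. WT rods held 6.77 to 12.3 CPM of Pttg1 at P4 and 7.30 to 9.56 CPM at P6. For the rest of these 8 genes the WT log2 fold changes ran from -1.51 to -0.63. In the other direction the 8 comprised the 5 called genes with Stom (1.49), Vsx1 and Camk1d (1.79).

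To describe what the members of these lists share in sequence, the 250 bases before the RefSeq start (GRCm38.p6) were searched on both strands for short motifs. TAATCC, the core bound by CRX and OTX2, was held by 7 of the 14 phototransduction genes with an entry, 4 of 14 bipolar genes (28.6%) and 0 of 30 cell cycle genes, against 6.72% of 11947 autosomal genes tested. CCAAT was held by 24 of 30 cell cycle genes (80.0%), against 39.3%, and TTTGAA, the core of the cell cycle homology region, by 10 of the 30 (33.3%), against 13.0%; bipolar genes held TTTGAA in 6 of 14 cases (42.9%). TGCTGA, from the NRL response element, was held by 4 of 14 phototransduction genes and by 4 of 14 bipolar genes (28.6% each), against 16.0% of all. A gene counted where at least 1 of its promoters held the letters, no motif contains another although neighbouring matches can share end letters, and a match is a description of the sequence and not evidence of binding.

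The 3 called genes with a single promoter entry, Amph, Grm6 and Scgn, and 1 example each from the bipolar and cell cycle lists that carry the motifs, Isl1 and Top2a, chosen after their matches were seen, follow from 5′ to 3′ on the strand of the gene, with matches to the 4 motifs, in either orientation, in capitals. The windows are chr13:18948101-18948350 (plus strand) for Amph, chr11:50850435-50850684 (plus) for Grm6, chr13:23991215-23991464 (minus) for Scgn, chr13:116309689-116309938 (minus) for Isl1 and chr11:99024190-99024439 (minus) for Top2a. The Amph window has no match, Grm6 and Scgn have 1 each, Isl1 has 1 TAATCC beside CCAAT, and the Top2a window is dense in CCAAT, mostly as its reverse complement.
Amph: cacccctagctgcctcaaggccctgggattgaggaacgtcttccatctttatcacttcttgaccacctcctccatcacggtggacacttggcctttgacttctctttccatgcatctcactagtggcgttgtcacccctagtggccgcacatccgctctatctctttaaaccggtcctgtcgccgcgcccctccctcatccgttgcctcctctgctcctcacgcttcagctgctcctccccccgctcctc
Grm6: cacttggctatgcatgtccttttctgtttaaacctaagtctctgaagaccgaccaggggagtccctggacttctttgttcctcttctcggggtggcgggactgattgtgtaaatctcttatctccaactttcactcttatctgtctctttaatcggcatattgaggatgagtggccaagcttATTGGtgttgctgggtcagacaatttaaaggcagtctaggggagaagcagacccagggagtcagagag
Scgn: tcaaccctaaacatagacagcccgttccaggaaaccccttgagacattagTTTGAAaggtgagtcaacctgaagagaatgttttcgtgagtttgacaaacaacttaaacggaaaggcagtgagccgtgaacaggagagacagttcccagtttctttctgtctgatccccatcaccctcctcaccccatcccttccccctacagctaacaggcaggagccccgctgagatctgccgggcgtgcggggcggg
Isl1: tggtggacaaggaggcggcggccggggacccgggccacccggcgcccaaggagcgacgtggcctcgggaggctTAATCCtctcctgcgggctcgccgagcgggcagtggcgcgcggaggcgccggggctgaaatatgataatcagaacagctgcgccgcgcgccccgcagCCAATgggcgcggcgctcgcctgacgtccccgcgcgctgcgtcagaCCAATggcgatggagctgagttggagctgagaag
Top2a: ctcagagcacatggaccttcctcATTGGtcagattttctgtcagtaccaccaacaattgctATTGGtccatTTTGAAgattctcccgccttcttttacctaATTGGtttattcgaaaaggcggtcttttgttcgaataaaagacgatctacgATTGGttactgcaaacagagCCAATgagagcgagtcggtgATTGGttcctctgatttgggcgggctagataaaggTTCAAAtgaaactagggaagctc

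Genes of retinal progenitors and neurogenesis had a median of -0.73 on the log2 scale, with 19 of 26 below and 3 above. Fgf15, a growth factor of progenitors, went from 10.4 and 29.0 CPM to 3.91, 7.81 and 3.40 CPM. The Notch effector Hes5 went from 88.0 and 168 CPM to 39.5, 34.5 and 39.5 CPM. Zfhx4, a homeobox gene, went the other way, from 31.2 and 11.8 CPM to 76.2, 89.4 and 68.1 CPM. Amacrine and horizontal cell markers had a median of -0.41, or -0.76 without the averaged P6 pair (10 of 17 below, 2 above), among them Ptf1a, which specifies both cell types, at 1.96 and 5.60 CPM and then at 0.362, 1.22 and 0.470 CPM.

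**Figure D3:**
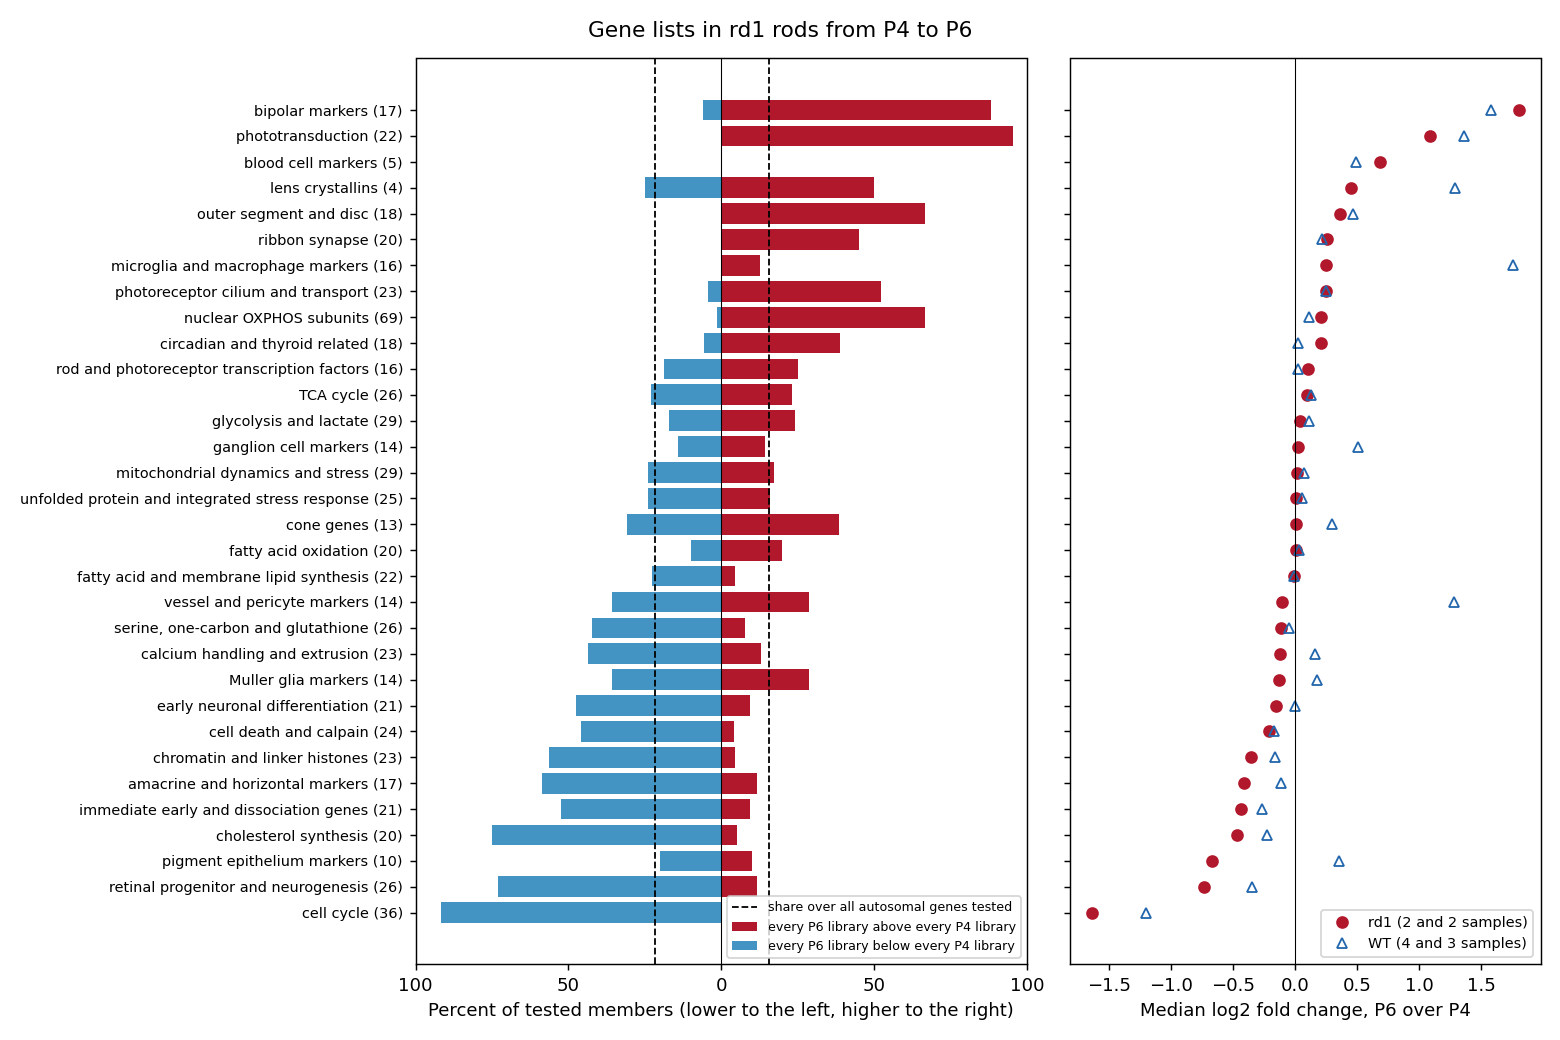
Left, the percent of the tested members of each of 32 lists (number in brackets) whose P6 libraries all lay above (right of 0) or all below (left of 0) both P4 libraries in rd1 rods, with the shares over all autosomal genes as dashed lines (15.6% above, 21.8% below). Right, the median log2 fold change of each list in rd1 and WT rods. Bipolar markers and phototransduction are at the top and cell cycle genes at the bottom.

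Among metabolic genes, the nuclear-encoded subunits of oxidative phosphorylation lay above in 46 of 69 cases and below in 1, but their shift was small, with a median log2 fold change of 0.21, or 0.13 without P4 rd1 replicate 2, and a highest value of 0.63. Cox6c, a subunit of cytochrome oxidase, stood at 176 and 148 CPM and then at 219, 223 and 220 CPM, and 61 of the 69 genes were higher in P4 replicate 1 than in replicate 2. Cholesterol synthesis genes went the other way, with 15 of 20 below, 1 above and a median of -0.47, or -0.26 without P4 rd1 replicate 2. Srebf2, the master regulator of the pathway, stood at 188 and 215 CPM and then at 125, 105 and 118 CPM. Glycolysis genes had 7 of 29 above and 5 below, with a median of 0.04. Among them Hk1, which encodes a hexokinase, stood at 172 and 96.7 CPM and then at 308, 220 and 303 CPM. Genes of the TCA cycle (6 of 26 above, 6 below) and of fatty acid oxidation (4 of 20 above, 2 below) had medians of 0.10 and 0.01.

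Chromatin and linker histone genes lay below in 13 of 23 cases and above in 1, with a median of -0.35, or -0.17 without P4 rd1 replicate 2 and -0.19 without the averaged P6 pair. Hmgb2, a chromatin protein of dividing cells, stood at 226 and 322 CPM and then at 111, 124 and 113 CPM. Of the circadian and thyroid related genes, 7 of 18 lay above and 1 below, among them Hr, a corepressor that thyroid hormone induces, at 22.0 and 7.71 CPM and then at 63.8, 46.8 and 65.2 CPM. Calcium handling genes had 3 of 23 above and 10 below, and early neuronal differentiation genes 2 of 21 above and 10 below.

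Among lists of stress and death, the unfolded protein response list had 4 of 25 above and 6 below (median 0.01), close to the shares over all genes, and the cell death and calpain list had 1 of 24 above and 11 below (median -0.21, or -0.35 and -0.13 without P4 rd1 replicate 1 and 2). Immediate early genes had 2 of 21 above and 11 below (median -0.43, or -0.23 without P6 rd1 replicate 2), with Fos, which cell dissociation can raise, at 472 and 420 CPM and then at 247, 278 and 233 CPM. Dcx, a gene of young neurons on the X chromosome, stood at 15.1 and 11.3 CPM and then at 8.74, 8.72 and 8.55 CPM.

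Markers of the remaining retinal cells had no member past the threshold. Summed microglia and macrophage markers came to 56.8 and 47.9 CPM at P4 and to 70.8, 51.8 and 67.0 CPM at P6 (2 of 16 above, 0 below). Muller glia markers came to 1741 and 1775 CPM and then to 1438, 1631 and 1440 CPM (4 of 14 above, 5 below). Vessel and pericyte markers came to 355 and 436 CPM and then to 222, 333 and 226 CPM (4 of 14 above, 5 below). Cone genes came to 1836 and 1739 CPM and then to 2033, 1875 and 2014 CPM (5 of 13 above, 4 below, log2 fold changes from -0.82 to 1.33). The lowest of them was the cone opsin gene Opn1sw, at 133 and 183 CPM and then at 74.6, 99.8 and 77.6 CPM. Ganglion cell markers had 2 of 14 above and 2 below, pigment epithelium markers 1 of 10 above and 2 below, and blood cell markers 0 of 5 either way.

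The step from P4 to P6 was then set beside the same step in WT rods, which shares its fit and spread but no library. There 153 autosomal genes rose (0.858%) and 32 fell (0.179%), and all 5 genes called in rd1 rods were among those that rose. P6 WT replicate 1 stood apart from the other P6 WT libraries, with 25749 genes detected against 21510 to 22050, and without it 81 genes rose and 11 fell, all 5 genes among those that rose. The WT counts also moved with other libraries: leaving out replicate 2 of P4 WT left 10 genes that rose, leaving out replicate 3 left 9, with 0 lower in both cases, 59 rose and 1 fell without P6 WT replicate 4, and 257 rose and 159 fell without P6 WT replicate 3. Ablim1 was not called without P4 WT replicate 1, 2 or 3 or P6 WT replicate 4, nor Car10 without P4 WT replicate 2. Grm6 had a log2 fold change of 6.72 ± 0.77 in WT (edgeR adjusted p = 0.000105), Scgn 4.93 ± 0.57, Amph 1.48 ± 0.16, Car10 2.94 ± 0.47 and Ablim1 0.98 ± 0.21. In CPM, WT Grm6 went from between 0.256 and 0.635 at P4 to between 35.6 and 66.4 at P6, and WT Amph from between 49.97 and 52.4 to between 122 and 162.

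The change in rd1 rods minus the change in WT rods passed the threshold for 0 of 17830 autosomal genes in edgeR (302, or 1.69%, at an unadjusted p of at most 0.05) and for 2 in DESeq2. The difference was -0.05 for Amph (95% interval, not adjusted over genes, -0.58 to 0.48), -1.72 for Grm6 (-4.11 to 0.66), -0.94 for Scgn (-2.74 to 0.85), 0.48 for Car10 (-0.99 to 1.96) and 0.55 for Ablim1 (-0.15 to 1.25). These intervals leave room for differences of more than 2-fold in each of these genes but Amph, so the steps are not shown to be equal. Calls of this difference moved with the samples left out. Without P4 rd1 replicate 2, the P4 rd1 side is replicate 1 alone, the library that stood apart on the chromosome 4 stretch. Whether the calls of that fit lie on the stretch was not tested.

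The lists with the largest medians in rd1 rods had medians of the same sign in WT: 1.09 in rd1 and 1.36 in WT for phototransduction, 1.80 and 1.58 for bipolar markers, and -1.64 and -1.19 for cell cycle genes. In WT, 11 of 22 phototransduction genes and 8 of 17 bipolar markers rose and 1 of 36 cell cycle genes fell. These counts were 0, 3 and 0 without P4 WT replicate 2 or 3, and 18, 9 and 20 without P6 WT replicate 3. Every P6 library lay above every P4 library in 17 of 22 phototransduction genes in WT (4.83% of all autosomal genes) and below in 15 of 36 cell cycle genes (5.47%). Other lists differed in the size or sign of their medians, without a test of these differences for the lists. Microglia markers had a WT median of 1.76, or 0.97 without P6 WT replicate 1, beside 0.25 in rd1. With 1 rd1 sample left out, the rd1 microglia median ran from -0.28 without the averaged P6 pair to 0.61 without P6 rd1 replicate 2. Vessel markers had 1.28 beside -0.11, and pigment epithelium markers 0.35 beside -0.67. With 1 WT sample left out, the WT medians ran from 0.76 to 1.62 for vessel and from 0.16 to 0.68 for pigment epithelium markers. The rd1 vessel median was 0.10 without P4 rd1 replicate 1. Summed levels in WT did not show a rise for vessel or pigment epithelium markers. Their medians over libraries went from 340 to 316 CPM and from 35.9 to 30.7 CPM. Cnga1 stood at 136 and 189 CPM in rd1 and at 23.8 to 58.6 CPM in WT at P4, and its changes of 1.06 ± 0.43 and 1.96 ± 0.35 differed by -0.90 (interval -2.02 to 0.22).

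**Figure D4:**
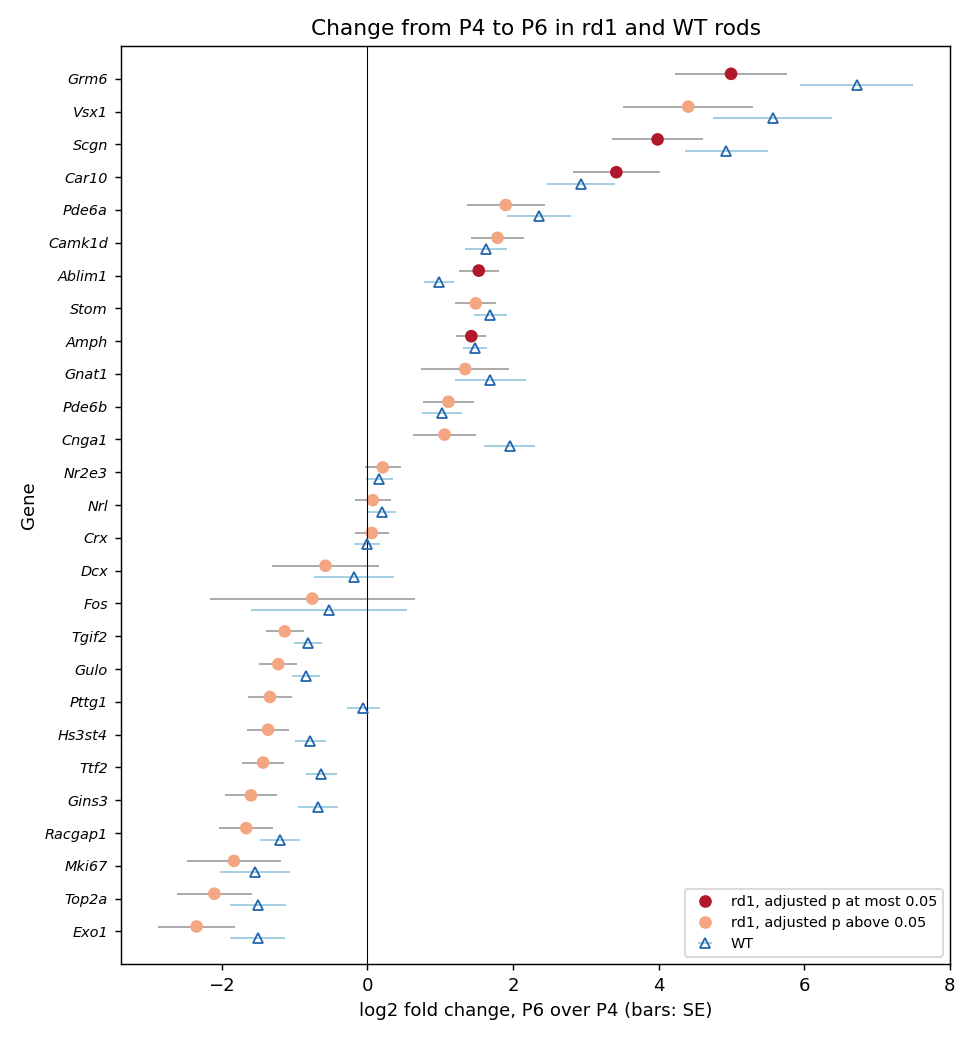
Log2 fold change of P6 over P4 with its SE (bars) in rd1 rods (circles) and WT rods (triangles) for the genes named by rule. The 5 genes past the threshold in rd1 are dark, and Grm6 is the highest in both genotypes at 5.00 and 6.72.

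The rd1 libraries at P2 and P10, which enter the step only through the shared spread, show the longer course. Over that span 2607 autosomal genes rose (14.6%) and 2751 fell (15.4%). The 5 called genes all rose from P2 to P10, Amph by a log2 fold change of 3.08 and Grm6 by 7.84. Of the 2779 genes above at P6, 1209 rose from P2 to P10 (43.5%) and 40 fell (1.44%), and of the 3881 below, 1598 fell (41.2%) and 78 rose (2.01%). All 22 phototransduction genes tested rose and all 36 cell cycle genes fell over the longer span. Top2a stood at 5.49 and 4.47 CPM at P10.

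Of the 17 bipolar markers tested, 12 rose from P2 to P10 and 2 fell, with a median log2 fold change of 2.71. Some bipolar genes did not keep the course of the P4 to P6 step at every later age. Lhx3, a LIM homeobox gene, stood at 22.4 and 19.8 CPM at P2, at 4.71 and 4.48 CPM at P4, at 17.8, 13.3 and 18.5 CPM at P6 and at 4.23 and 2.06 CPM at P10, and it fell from P2 to P10 by 2.60 on the log2 scale (edgeR adjusted p = 0.00649). Vsx1 stood at 19.1 to 45.3 CPM at P8 and at 12.2 and 4.43 CPM at P10. Scgn was highest at P8, at 24.3 to 50.4 CPM, with 15.3 and 9.02 CPM at P10. In the sorted rd1 cells Vsx1 and Scgn were thus low at P4 and lay lower at P10 than at P8, a difference that was not tested. From P2 to P10 both Vsx1 and Scgn rose, by 7.26 and 6.60 on the log2 scale. The P8 rd1 libraries were shallower, at 11103460 to 13839911 counts against 17128868 and 21363610 at P10, and their summed immediate early genes came to 718 to 992 CPM against 3738 and 4660 CPM, so age, depth and this sum cannot be told apart. By contrast, the phototransduction sum had its highest libraries at P10 (45868 and 63451 CPM).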

How the data were processed

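GFP-positive rods were sorted and their RNA sequenced with a stranded mRNA kit, per the labels' protocols. The deposited gene table holds the authors' estimated counts (expected counts; kallisto 0.42.4, edgeR 3.32.1 and GRCm38.p5 per the submitters' processing notes), which were rounded. The authors' deposited CPM table equalled count over library total to within 5.8e-11. In each of 3 tables, 1 column of no labelled sample was not used, and the transcript table was not used.

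Chi-square over degrees of freedom was 2.71 between P6 rd1 replicates 1 and 3 (genes with at least 20 counts) and 10.4 to 119.5 in the 28 other pairs within a group, so these replicates were averaged. The 27 samples in 10 groups of age and genotype entered 1 fit (edgeR 4.0.16 in R 4.3.3, quasi-likelihood, TMM, filterByExpr with a minimum count of 10, 17 residual degrees of freedom), which kept 18608 of 45594 genes. P-values are two-sided and adjusted over all genes kept, autosomal genes are counted, and the threshold is 0.05. SE is the log2 fold change over the square root of F. Gene positions are from GENCODE on GRCm38.

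Named genes were the 8 of smallest p in each direction at a mean log2 CPM of at least 1, without overlap of libraries and not predicted genes, list members past the threshold, and a fixed set of rod, cycling and activity genes, of which 1 is not reported here. Members and lists were chosen with earlier results of these data known. On simulated counts the test of rd1 P6 over P4 recovered 26.5% of 2-fold, 68.2% of 4-fold and 75.8% of 8-fold changes, with 5 false of 118 calls among 18361 genes. The rd1 minus WT test recovered 10.3%, 48.5% and 66.7%. The simulation drew each gene on its own, without the differences that many genes shared between the P4 rd1 replicates. Its 118 calls for rd1 P6 over P4 also set a looser cutoff than the 5 calls in the data. The recovered shares may thus be higher than those in the data. Alternatives covered scaling, filter, DESeq2 1.42.0, the samples fitted, a replicate block and each library left out.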

Additional observations from a re-analysis of the deposited data

Results flagged for a closer look

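Of 27 genes named by rule, each examined in the 4 P6 WT and the 4 P8 rd1 libraries, 7 of 54 groups had 1 library far from the other 3. The rule was a gap to the nearest library of more than 0.829 of the range. It gives about 1 in 20 by chance for independent groups of normal values. These groups reuse the same libraries, so their number is not read as an excess. In P6 WT, replicate 4 was the highest for Grm6 (66.4 CPM, others 35.6 to 40.4), Scgn (16.7, others 10.4 to 10.8) and Stom (121, others 73.2 to 79.6 CPM). Replicate 3 of P6 WT was the highest for Gins3 (4.02, others 3.29 to 3.33 CPM), and replicate 1 for Fos (270.0, others 11.3 to 40.6 CPM). In P8 rd1, Gins3 was highest in replicate 4 (1.29, others 0.846 to 0.872 CPM) and Tgif2 lowest in replicate 3 (2.42, others 2.94 to 3.04 CPM). None of these libraries enters the rd1 step from P4 to P6 other than through the shared spread.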

How the results depend on the processing

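The count of called genes in rd1 rods depended on the fit. It was 5 (5 higher, 0 lower) as reported, 4 with RLE size factors (4 of the 5 kept), 4 with library totals (3 kept), 139 without the filter on low counts (72 higher, 67 lower), 128 with DESeq2 (72 and 56), 162 with only the 12 rd1 samples (94 and 68), 0 (0 higher) with only the 4 samples compared, and 96 with P6 rd1 replicates 1 and 3 kept apart (41 and 55). A fit on the 8 rd1 samples of 1 depth class, chosen after seeing the data, gave 145 (81 and 64). All 5 genes were kept in each of these fits with more than 5 calls. List members called in the 12-sample fit were 9 of 23 phototransduction genes listed, 8 of 18 bipolar and 8 of 36 cell cycle genes. The same fit called 4 of 21 outer segment and disc genes and 3 of 23 ribbon synapse genes. It also called 2 of 21 immediate early and 2 of 22 cholesterol synthesis genes, and at most 1 in any other list. These counts have no share over all genes of that fit beside them. Of the DESeq2 calls, 12 were on the chromosome 4 stretch, and so were 12 of those without the filter. With P6 rd1 replicates 1 and 3 kept apart, 9 calls were on the stretch, and that fit counts the near-identical pair as separate samples. Leaving out 1 sample, with a lone sample assumed to vary like the other groups, gave 0 to 18 calls, 0 to 13 higher and 0 to 14 lower. In WT rods, 9 to 257 genes were higher and 0 to 159 lower when 1 WT sample was left out. The leave-outs of WT samples for these counts were also added after seeing the data.

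The rd1 minus WT change was called in 0 genes as reported, 7 without the filter, 2 with DESeq2, and 0 to 11 when 1 sample was left out. With the replicate number as a replicate block, 23 genes were called, all 23 higher, and the rd1 minus WT count was 0. The deviations of P4 and P6 rd1 replicates of the same number correlated at 0.376 over 12145 genes with only 2 pairs, so the numbers were not taken to pair samples.

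Without P4 rd1 replicate 2 the log2 fold change turned to -0.025 for Nrl and -0.0075 for Crx, and without the averaged P6 pair to -0.038 for Nrl, -0.15 for Nr2e3 and -0.16 for Crx, while the highest values with 1 sample left out were 0.18, 0.50 and 0.25 for Nrl, Nr2e3 and Crx. Over all named genes and settings, 1610 values kept direction and side of the threshold, 157 passed it only in the alternative, 30 no longer passed and 5 turned. The cause of these shifts was not tested. List medians under the scalings and rd1 leave-outs ran from 0.84 to 1.34 for phototransduction, 1.55 to 2.03 for bipolar markers and -2.09 to -1.03 for cell cycle genes. With 2 samples a side, most 2-fold changes were out of reach of the test.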
